A study of Mus musculus with 20 samples.

Results

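Microglia taken from the mouse retina 7 days after laser lesioning were set against microglia of unlesioned control retina, to see which changes in expression were present a week after the lesion and in what share of the cells. The cells are the wells that the authors' retina annotation calls microglia, 113 wells in 4 day 7 libraries and 120 wells in 4 control libraries, out of 511 annotated retinal wells and 3840 wells in the whole series. The 81 microglia wells of 4 day 3 libraries, collected 3 days after the lesion, served to place the day 7 values in time. All mice were C57BL/6 aged 8 weeks, with no transgene named in the labels. The lesioned libraries carry the label CNV, which usually stands for choroidal neovascularization, where laser burns break the membrane beneath the retinal pigment epithelium and new vessels grow from the choroid. Cells stained for CD45 and CD11b were sorted as CD45+ cells, 1 to a well, and each library held 192 wells read by mCEL-Seq2, which counts molecules at the 3' end of transcripts. The libraries carry a prefix P1 or P2, with 2 libraries of each group under each prefix, here called a pair. The series speaks of about 6 mice in 3 experiments and the labels tie no library to a mouse, so p-values measure only the spread between these samples, which may be technical.

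Microglia are the resident macrophages of nervous tissue. In the healthy retina they hold a surveying state marked by purinergic and chemokine receptors such as P2RY12 and CX3CR1. After injury or near dying neurons they lower these genes and raise lysosomal, lipid-handling and antigen-presentation genes, a programme described in the brain as that of disease-associated microglia.

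The label was set beside marker levels and a second call. The authors' annotation also holds a cell type by signature. By that signature, 99 of 113 day 7 wells and 118 of 120 control wells were microglia too. The identity of the remaining wells was not tested. The 21 genes of the microglia identity list summed to 38345 to 42189 CPM (transcript counts scaled to an equal total per library) in the day 7 libraries and 54387 to 59823 CPM in the control libraries, with no member at 0 in either group. The 11 monocyte markers summed to 338 to 597 CPM at day 7 and 92.2 to 367 CPM in control, with Chil3, Vcan and Hp at 0 in both groups. The 10 dendritic cell markers summed to 85.3 to 277 CPM at day 7 and 30.7 to 214 CPM in control. The 6 corneal epithelium markers summed to 14.2 to 696 CPM at day 7 and 0 to 1669 CPM in control. The source of these corneal transcripts was not tested. The day 7 libraries held 22 to 37 microglia wells each and the control libraries 15 to 59. Transcripts per well were counted over the genes of the authors' retina table, which leaves some genes out. Their median was 2037 to 2334 in the day 7 libraries and 1418 to 2036 in the control libraries. The difference was 438 (exact two-sided permutation test over 4 against 4 libraries, p = 0.0286, the smallest this design allows, 0.0857 after Benjamini-Hochberg adjustment over 6 measures). Left-out genes took a median of 36.5 to 44.8% of a well's transcripts at day 7 and 43.8 to 57.1% in control. A difference in depth over all genes was not tested. Mitochondrial genes made a median of 8.26 to 12.5% of a well's transcripts at day 7 and 5.10 to 10.4% in control, and photoreceptor genes 0.492 to 1.08% at day 7 and 0.375 to 0.946% in control. These 2 measures overlapped between the groups.

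Of 3408 genes tested on summed counts per pair, 62 passed an adjusted p of 0.05 between day 7 and control (edgeR quasi-likelihood test), which is 1.82% of those tested. Day 7 microglia were higher in 47 of them (1.38%) and lower in 15 (0.44%). The lower genes included the surveying-state genes P2ry12, P2ry13, Tmem119, Gpr34 and Cx3cr1 and the transcription factor genes Jun and Fos. The higher genes fell into ribosomal protein genes and their copies, which made up 24, and 23 others, among them lysosomal, iron-storage, antigen-presentation, interferon-responsive and adhesion genes. Day 3 microglia, set against the same control sums, differed from control in 766 genes (22.5%). Without 1 pair at a time the count was 41 (day 7 pair P1), 63 (day 7 pair P2), 135 (control pair P1), 73 (control pair P2), 142 (day 3 pair P1) or 100 (day 3 pair P2). The count for day 3 fell to 416 without the control pair P2 and to 480 without the day 3 pair P2. Each fit without 1 pair left 1 sum in a group and tested its own set of genes, 3785 to 4983 in number. Its count and adjusted p-values therefore rest on other gene sets than the main fit. The 62 calls rest on a spread estimated over all 3 groups. With the day 3 sums left out of the fit, 3 genes passed, namely P2ry12, Ctsb and Apoe. DESeq2 called 26 genes, and all 62 kept their direction there.

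**Figure D1:**
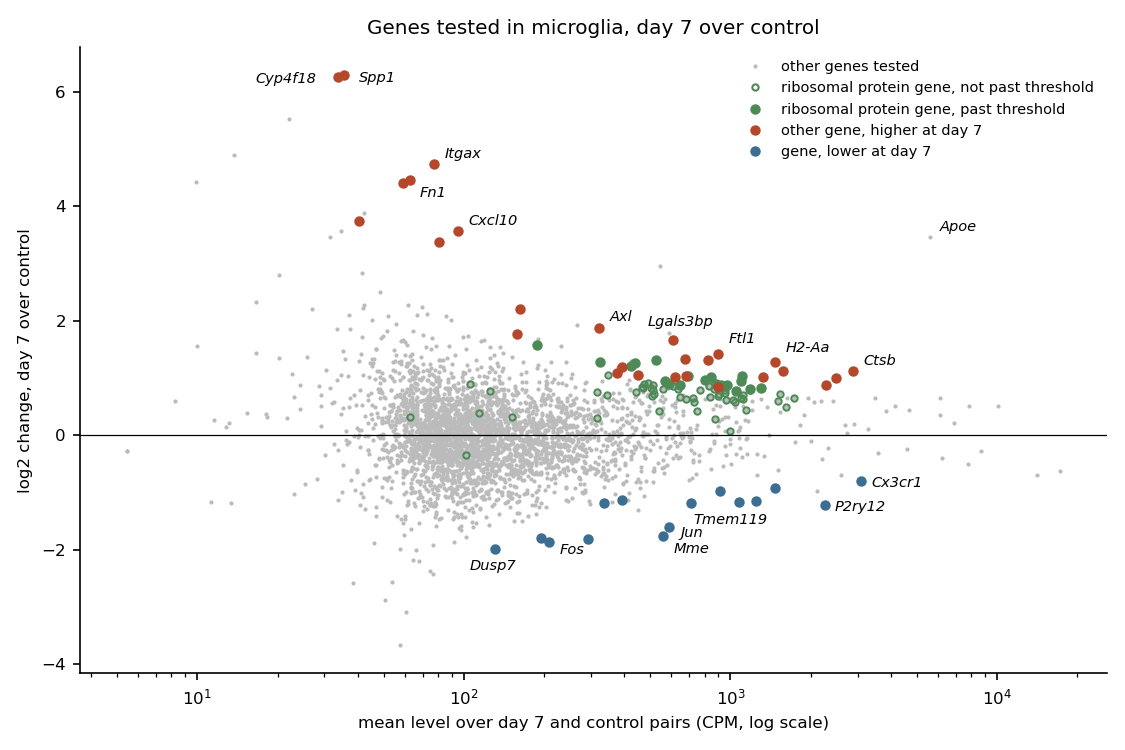
Log2 change of day 7 over control microglia (vertical axis) against the mean level over the 2 day 7 and 2 control pairs (horizontal axis, CPM on a log scale) for the 3408 genes tested, 1 point per gene, with genes past an adjusted p of 0.05 in colour. The 15 lower genes include P2ry12 at -1.21, the ribosomal protein genes form a band above 0, and Apoe stands far above 0 at a high level without passing the threshold.

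The receptors that mark surveying microglia were lower at day 7. P2ry12, the ADP receptor that steers microglial processes towards injury, stood at 1209, 1596, 1352 and 1128 CPM in the 4 day 7 libraries, against 2598, 3411, 2965 and 3588 CPM in the 4 control libraries. Every day 7 library was below every control library. The log2 change was -1.21 ± 0.19 (SE, n = 2 pairs each, edgeR adjusted p = 0.00205), and it passed without any one of the day 7 or control pairs. Tmem119, a membrane protein used as a microglial marker, had 882, 972, 446 and 773 CPM at day 7 against 1406, 1905, 1694 and 1896 CPM in control, again without overlap (log2 change -1.15 ± 0.22, adjusted p = 0.00782).

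Gpr34, a lysophosphatidylserine receptor, had 1252, 864, 922 and 1023 CPM in the day 7 libraries and 1284, 2243, 1762 and 2362 CPM in the control libraries. The groups were apart by a narrow margin (log2 change -0.93 ± 0.20, adjusted p = 0.0146). P2ry13, a second ADP receptor, fell by 1.16 ± 0.21 on the log2 scale (adjusted p = 0.00537), and the fractalkine receptor gene Cx3cr1 fell by 0.80 ± 0.18 (adjusted p = 0.0227). Leaving out the day 7 pair P1 cost P2ry13 (adjusted p = 0.0975), Gpr34 (0.115) and Cx3cr1 (0.138) their calls. Leaving out the day 7 pair P2 did so for Tmem119 (0.142), Gpr34 (0.134) and Cx3cr1 (0.245), and leaving out the control pair P2 for Gpr34 (0.121) and Cx3cr1 (0.174).

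Of the 19 tested members of the microglia identity list, these 5 were lower and none was higher, beside 0.44% of all genes tested lower. The median log2 change was -0.70 beside 0.01 over all genes tested. Sall1, the transcription factor that maintains microglial identity, was at -0.82 ± 0.26 (adjusted p = 0.107) and the lectin gene Siglech at -0.60 ± 0.22 (adjusted p = 0.16).

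**Figure D2:**
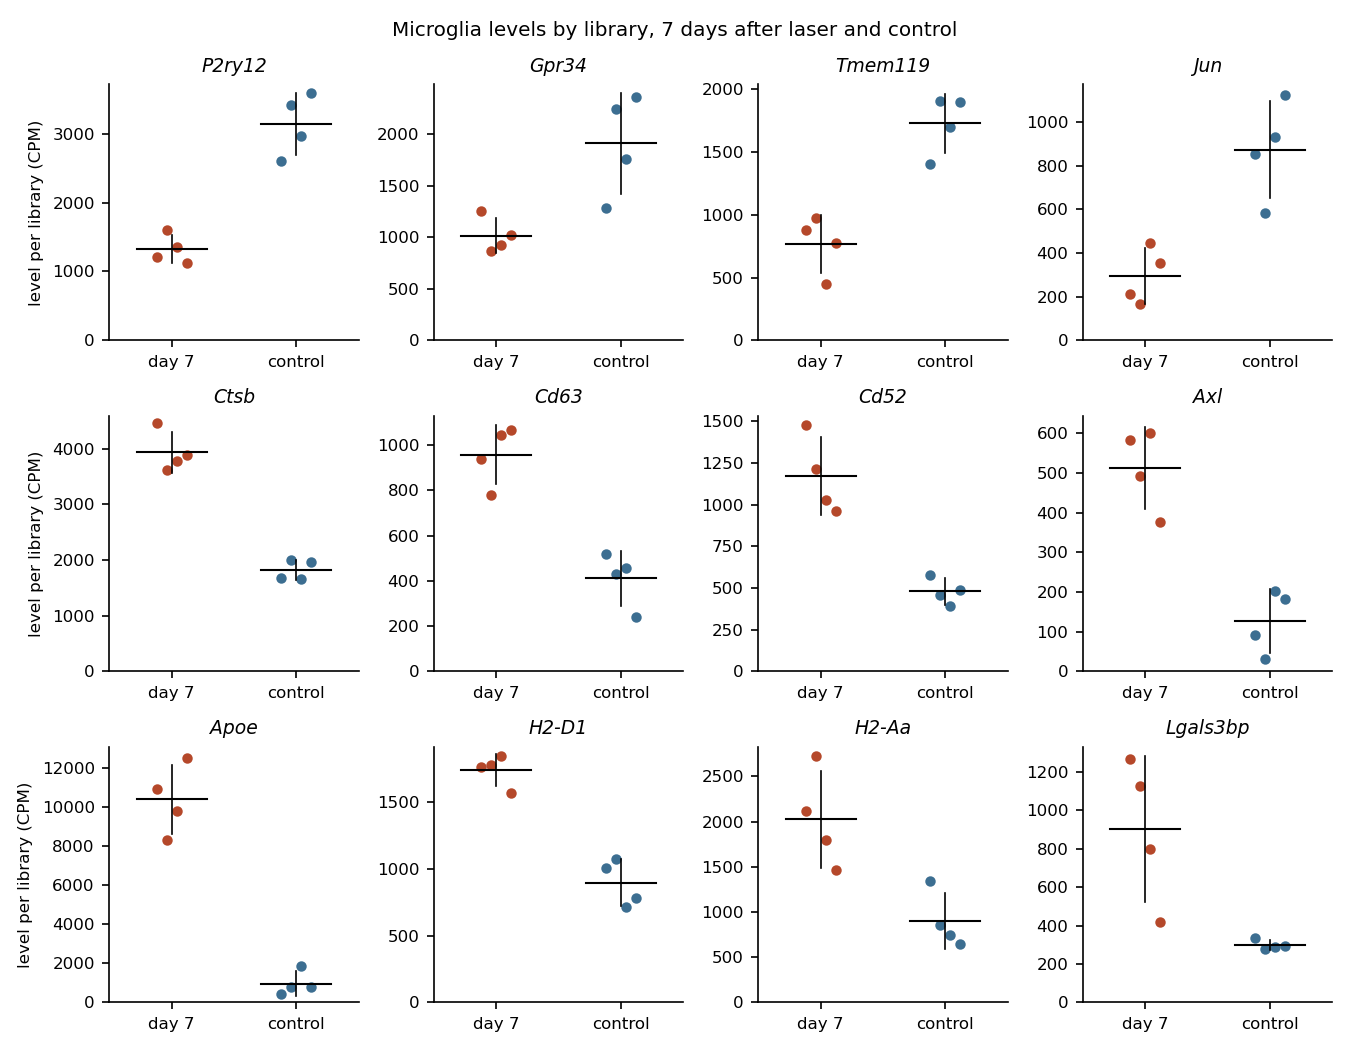
Levels in CPM of 12 genes in the 4 day 7 libraries (left) and the 4 control libraries (right), 1 point per library, with the mean as a bar and 1 SD as a line. The groups do not overlap in any of the 12 panels, P2ry12 lying between 1128 and 1596 CPM at day 7 and between 2598 and 3588 CPM in control. Apoe did not pass the threshold of the edgeR test.

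The immediate early genes Jun and Fos and the ERK phosphatase genes Dusp6 and Dusp7 were also lower. Jun, a subunit of the AP-1 transcription factor, had 213, 168, 446 and 355 CPM at day 7 against 856, 584, 932 and 1124 CPM in control (log2 change -1.60 ± 0.31, adjusted p = 0.00811). Fos, its partner, had 28.5, 156, 92.2 and 62.7 CPM at day 7 against 306, 307, 458 and 284 CPM in control (log2 change -1.86 ± 0.39, adjusted p = 0.013). Both genes were lower in every day 7 library than in any control library. Among 11 tested immediate early genes these 2 fell and none rose, beside 0.44% of all genes tested lower, with a median log2 change of -1.05. Klf4, a further member of the immediate early list, had 2 transcripts at day 7 and 23 in control (adjusted p = 0.0814). Of 3 tested genes of ERK feedback 1, Dusp6, fell. Dusp6 and Dusp7, phosphatases that switch off ERK, fell by 1.82 ± 0.34 and 1.98 ± 0.48 on the log2 scale (adjusted p = 0.00696 and 0.0315). Jun did not pass without the day 7 pair P1 (0.117) or Fos without the control pair P2 (0.0891); Dusp6 failed without either of these pairs (0.0511 and 0.0563), and Dusp7 without the day 7 pair P1 (0.177) or the control pair P1 (0.092).

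The remaining lower genes were Mme, which encodes the peptidase neprilysin, the prostaglandin-degrading enzyme gene Hpgd, and Numb, Rhob, Pag1 and Pmepa1. Mme had 99.6, 204, 384 and 334 CPM at day 7 against 672, 707, 1559 and 670 CPM in control (log2 change -1.76 ± 0.33, adjusted p = 0.00782). The day 7 libraries all lay below the control libraries, although the 2 prefixes differed at day 7 and the call was lost without the day 7 pair P1 (adjusted p = 0.0732).

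Genes of the disease-associated microglia programme were higher at day 7. Of its 24 tested members 9 were higher and none was lower, beside 1.38% of all genes tested higher. The median log2 change was 0.64. The list is the published brain programme, and its members were chosen with earlier results of these data known. Ctsb, the lysosomal cysteine protease cathepsin B, had 4452, 3612, 3779 and 3885 CPM at day 7 against 1681, 1997, 1660 and 1964 CPM in control. The ranges were far apart (log2 change 1.12 ± 0.17, adjusted p = 0.00205). Ftl1 and Fth1, the ferritin chains that store iron, rose by 1.43 ± 0.22 (adjusted p = 0.00205) and 0.87 ± 0.19 (adjusted p = 0.0158), and Cd63, a tetraspanin of late endosomes, by 1.33 ± 0.24 (adjusted p = 0.00537).

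Cd52, a small surface glycoprotein gene, had 1479, 1212, 1029 and 961 CPM at day 7 against 581, 461, 390 and 488 CPM in control (log2 change 1.33 ± 0.22, adjusted p = 0.00323). Axl, a receptor tyrosine kinase for the uptake of dying cells, had 583, 492, 599 and 376 CPM at day 7 against 91.7, 30.7, 203 and 182 CPM in control (log2 change 1.88 ± 0.36, adjusted p = 0.00782). Neither gene overlapped between the groups, and Ctsb, Ftl1, Cd52, Cd63 and Axl passed without any one of the day 7 or control pairs. Fth1 did not pass without the day 7 pair P2 (0.079).

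Itgax, the integrin chain known as CD11c, had 40 transcripts in 30 of 113 day 7 wells and 1 transcript in 1 of 120 control wells. The ratio of summed transcripts was 31.9, with a 95% counting interval of 5.40 to 1289 (adjusted p = 0.0047, and 0.066 without the control pair P2). Spp1, which encodes osteopontin, had 19 transcripts in 10 day 7 wells and none in 120 control wells, at least 5.04-fold higher when the control is set to a floor of 3 transcripts over the group (adjusted p = 0.0104, and 0.103 without the control pair P2). For the 0 of 120 control wells, a floor of 3 wells is a share of 2.5%, and the upper bound of the 95% Wilson interval is 3.10%. These intervals and floors cover counting error only.

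Other members of the programme were not past the threshold. Trem2, the lipid-sensing receptor needed for this programme in the brain, was at 0.25 ± 0.21 (adjusted p = 0.671), Cd9 at -0.12 ± 0.19 (adjusted p = 0.869), Clec7a at 0.60 ± 0.30 (adjusted p = 0.36) and Lpl, lipoprotein lipase, at -0.43 ± 0.38 (adjusted p = 0.694). Trem2's adaptor gene Tyrobp was at 0.64 ± 0.20 (adjusted p = 0.0917). Outside the list, day 7 microglia were higher in Grn, the lysosomal protein progranulin (log2 change 1.01 ± 0.18, adjusted p = 0.00537), in the cathepsin gene Ctsh (0.85 ± 0.22, adjusted p = 0.0493; 0.27 without the day 7 pair P1 and 0.106 without the control pair P1) and in Fcgr4, an activating IgG receptor (1.77 ± 0.41, adjusted p = 0.0235; 0.231 without the day 7 pair P1 and 0.0544 without the control pair P2). Fn1, the matrix protein fibronectin, had 32 transcripts at day 7 and 1 in control, a ratio of 25.5 with a counting interval of 4.26 to 1038 (adjusted p = 0.00323). One day 7 library held no Fn1 transcript while another stood at 313 CPM.

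Apoe, the lipid-carrying apolipoprotein E, was far apart between the groups without passing the test. Its level was 10953, 8328, 9831 and 12510.2 CPM in the day 7 libraries against 428, 799, 1864 and 772 CPM in the control libraries. The log2 change was 3.47 ± 0.96 with an adjusted p of 0.276. The day 3 libraries ran from 359 to 4159 CPM, and their spread enters the fit: without the day 3 sums the adjusted p was 0.000623, and it was 0.0114 with single libraries as replicates. Apoe is also a gene of Müller glia, the retina's own glial cells. The other 10 markers of Müller glia and astrocytes summed to 1138 to 1716 CPM at day 7 and 947 to 1612 CPM in control. One of them, the retinaldehyde-binding protein gene Rlbp1, had 32 transcripts at day 7 and 6 in control (log2 change 2.11 ± 0.72, adjusted p = 0.13). The part of glial RNA in the Apoe level was not tested.

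The antigen-presentation genes H2-D1, H2-Aa and H2-Eb1 were higher at day 7. H2-D1, a classical MHC class I heavy chain, had 1764, 1776, 1843 and 1566 CPM at day 7 against 1009, 1075, 712 and 783 CPM in control (log2 change 1.02 ± 0.21, adjusted p = 0.0127). The groups were apart, and the call held without any one of the day 7 or control pairs. MHC class I genes have near-identical copies, and how shared reads were counted is not given in the sources used here. H2-Aa and H2-Eb1 encode an alpha and a beta chain of MHC class II. H2-Aa had 2119, 2724, 1797 and 1462 CPM at day 7 against 1345, 860, 745 and 647 CPM in control (log2 change 1.28 ± 0.26, adjusted p = 0.0187), and H2-Eb1 rose by 1.12 ± 0.26 (adjusted p = 0.0351). Neither class II gene overlapped between the groups. Without the day 7 pair P1 the adjusted p was 0.0706 for H2-Aa and 0.0634 for H2-Eb1, and without the control pair P2 it was 0.0883 for H2-Eb1. Of the 8 tested genes of the class II list 2 rose, and of the 8 of the class I list 1 rose, beside 1.38% of all genes tested higher. B2m, the light chain of class I, was at 0.65 ± 0.18 (adjusted p = 0.0686). The class II message was unevenly spread: the tenth of wells with the most H2-Aa held 50.6% of its transcripts at day 7 and 50.9% in control.

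3 interferon-responsive genes were higher as well. Lgals3bp, a secreted glycoprotein gene, had 1266, 1128, 799 and 418 CPM at day 7 against 336, 277, 288 and 295 CPM in control (log2 change 1.66 ± 0.31, adjusted p = 0.00782; 0.0732 without the day 7 pair P1). Ifi27l2a, a small interferon-induced gene, rose by 2.21 ± 0.51 (adjusted p = 0.0235; 0.367 without the control pair P2), and its libraries overlapped, at 144 to 338 CPM at day 7 and 0 to 214 CPM in control. Cxcl10, a chemokine that draws T cells, had 44 transcripts in 10 day 7 wells and 3 transcripts in 3 control wells, a ratio of 11.7 with a counting interval of 3.75 to 58.8 (adjusted p = 0.0259; 0.134 without the day 7 pair P2). A single day 7 well held 26 of the 44, and 1 of the 4 day 7 libraries held none. Of 17 tested interferon-response genes these 3 rose and none fell, beside 1.38% of all genes tested higher. Lgals3bp is also counted among the 9 higher members of the disease-associated list. All 17 had a log2 change above 0, with a median of 1.12. Isg15 was at 2.50 ± 0.73 (adjusted p = 0.0683) and Ifitm3 at 1.69 ± 0.44 (adjusted p = 0.0518).

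The promoters of the presentation genes and of Cxcl10 are shown because H2-Aa, H2-Eb1, H2-D1 and Cxcl10 were higher at day 7, B2m pairs with H2-D1, and they carry sequence elements known from textbook work on these pathways. Each line gives 150 bases from RefSeq's table for GRCm38.p6, read 5′ to 3′ on the gene's strand, ending 1 base before the annotated start for the MHC genes and B2m and 101 bases before it for Cxcl10, a stretch placed to show its match. Capitals mark ATTGG or its reverse complement CCAAT, the core of the Y box bound by NF-Y at MHC promoters, and GAAA followed by any pair of bases and a second GAAA, or the reverse complement, the core of the interferon-stimulated response element.
H2-Aa, chr17:34287824-34287973, minus strand: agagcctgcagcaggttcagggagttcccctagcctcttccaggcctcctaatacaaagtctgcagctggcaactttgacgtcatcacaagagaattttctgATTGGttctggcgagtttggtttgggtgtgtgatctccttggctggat
H2-Eb1, chr17:34305717-34305866, plus strand: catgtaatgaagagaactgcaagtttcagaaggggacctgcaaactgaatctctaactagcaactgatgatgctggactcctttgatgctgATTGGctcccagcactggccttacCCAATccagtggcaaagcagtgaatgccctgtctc
H2-D1, chr17:35262944-35263093, plus strand: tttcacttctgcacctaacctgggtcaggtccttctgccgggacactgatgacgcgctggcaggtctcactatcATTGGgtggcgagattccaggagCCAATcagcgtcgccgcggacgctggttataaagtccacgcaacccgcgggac
B2m, chr2:122147537-122147686, plus strand: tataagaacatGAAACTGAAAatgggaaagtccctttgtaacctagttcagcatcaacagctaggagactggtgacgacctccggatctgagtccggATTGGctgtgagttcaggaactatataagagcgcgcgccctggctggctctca
Cxcl10, chr5:92348990-92349139, minus strand: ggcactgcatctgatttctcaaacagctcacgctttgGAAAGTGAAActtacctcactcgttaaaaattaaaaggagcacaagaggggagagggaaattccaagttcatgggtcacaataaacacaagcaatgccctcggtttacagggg

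ATTGG on either strand lay within the 150 bases before the start in all 4 presentation genes, beginning 48, 59, 76 and 53 bases upstream in H2-Aa, H2-Eb1, H2-D1 and B2m, and it is in 24.5% of the same stretch of 32851 RefSeq promoters. In the 250 bases before the start, the exact pattern of the response element core was found in Cxcl10 and B2m, beginning 213 and 139 bases upstream. It was not found in H2-Aa, H2-Eb1, H2-D1 or Lgals3bp, and 2.98% of the promoters hold it there. Stretches that depart from the pattern were not counted, so its absence does not show that a gene lacks a response element. Over the same 250 bases Cxcl10 also held ATTGG or CCAAT, beginning 54 bases upstream, and Lgals3bp held neither; 33.8% of the promoters hold one. The genes and elements were picked with the results known. A match is a description of the sequence and shows no binding. Of 7 genes looked up, Ifi27l2a had no entry.

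Ribosomal protein genes formed the largest single group among the higher genes, and were grouped after their values were seen. Of 71 tested, 20 were higher at day 7 and none was lower, beside 1.38% of all genes tested higher. Their median log2 change was 0.78, beside 0.01 over all genes tested. A change above 0 was seen in 70 of the 71, and in 1736 of all 3408 genes tested. Rps15, of the small subunit, had 725, 816, 891 and 501 CPM at day 7 against 153, 430, 356 and 295 CPM in control (log2 change 1.31 ± 0.24, adjusted p = 0.00537). Its day 7 libraries all lay above the control libraries. Counted per well, these genes made a median of 5.59, 6.02, 6.23 and 6.10% of transcripts in the day 7 libraries and 3.66, 3.59, 3.70 and 3.39% in the control libraries (exact two-sided permutation test, p = 0.0286, 0.0857 over 6 measures). The number of genes past the threshold moved between 0 and 44 over the processing alternatives, while their median stayed between 0.65 and 0.89. Ribosomal genes have many processed copies, of which Gm9493, Gm10263, Gm2000 and Rpl13-ps3 were also higher, so single members are uncertain. The share of a well's transcripts in genes that the authors left out of their retina table was lower at day 7 on average, with overlap. Its median was 36.5 to 44.8% in the day 7 libraries and 43.8 to 57.1% in the control libraries (exact two-sided permutation test, p = 0.0571, 0.114 over 6 measures). Its part in the ribosomal result was not tested.

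**Figure D3:**
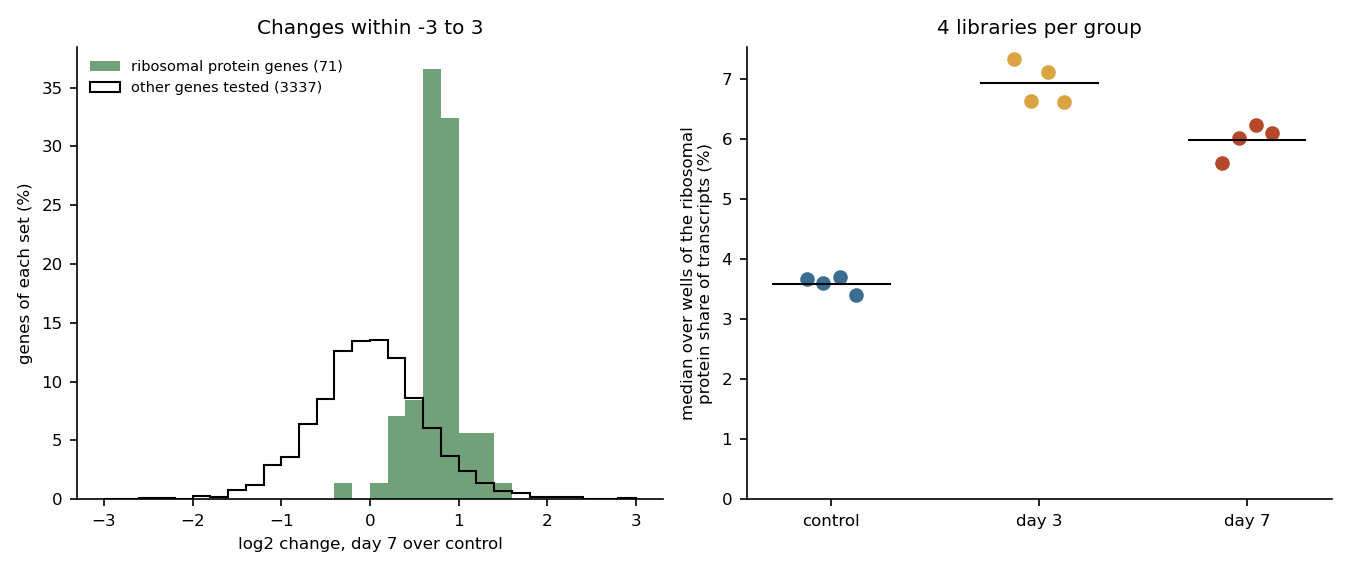
Left, the distribution of log2 changes of day 7 over control for 71 ribosomal protein genes (filled) and the other genes tested (outline), in percent of each set. Right, the median share of a well's transcripts in ribosomal protein genes for the 4 libraries of each time, with the mean as a bar; the 4 day 7 libraries sit between 5.59 and 6.23% and the 4 control libraries between 3.39 and 3.70%.

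The day 3 libraries place these differences in time. Both comparisons use the same control sums, so the direct test is that of day 7 over day 3, in which 322 of 3408 genes passed (9.45%), 153 higher at day 7 (4.49%) and 169 lower (4.96%). This count lay between 186, without the day 3 pair P2, and 542, without either control pair, and was 210 without the day 7 pair P1. Some surveying receptors were higher at day 7 than at day 3: P2ry12 was 0.65 ± 0.19 higher at day 7 than at day 3 on the log2 scale (adjusted p = 0.033) and Gpr34 1.04 ± 0.21 higher (adjusted p = 0.00298). Tmem119 differed by 0.04 ± 0.23 (adjusted p = 0.938) and Cx3cr1 by 0.14 ± 0.18 (adjusted p = 0.67). Fn1 was 2.58 ± 0.31 lower at day 7 than at day 3 (adjusted p = 1.63e-05), Spp1 2.44 ± 0.38 lower (adjusted p = 0.000273) and Lpl 1.71 ± 0.34 lower (adjusted p = 0.00259).

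Another set of day 3 changes was not called at day 7. Over all genes tested, 11.9% were higher at day 3 than in control and 1.38% were higher at day 7 than in control. Lower at day 7 than at day 3 were 4.96%. A count of 0 at day 7 is therefore near the share over all genes, and does not show a return to control. Of 19 tested cell cycle genes 17 were higher at day 3 than in control and 0 were called at day 7, when 16 were lower than at day 3. Top2a, a topoisomerase of dividing cells, had 2 transcripts at day 7 and 4 in control, beside 123 at day 3. Of 17 actin and motility genes 16 were higher at day 3 than in control and 0 were called at day 7, when 13 were lower than at day 3. Actb, beta-actin, averaged 7143 ± 1076 CPM in control, 18712 ± 13.6 CPM at day 3 and 5312 ± 759 CPM at day 7 (SD, n = 2 pairs). Of 10 glycolysis genes 6 were called higher at day 3 and 0 at day 7. At an unadjusted p of 0.05, 484 genes differed between day 7 and control.

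Members of the antigen-presentation lists differed in both directions. H2-D1 averaged 898 ± 203 CPM in control, 752 ± 108 CPM at day 3 and 1748 ± 31.3 CPM at day 7, and was 1.21 ± 0.21 higher at day 7 than at day 3 on the log2 scale (adjusted p = 0.000802). H2-Aa was 1.09 ± 0.25 higher (adjusted p = 0.0131) and B2m 0.71 ± 0.18 higher (adjusted p = 0.0158). Ifi30, a lysosomal thiol reductase gene of the class II list, was 1.09 ± 0.22 lower at day 7 than at day 3 (adjusted p = 0.00348). In the class II list 2 of 8 tested genes were higher and 1 was lower at day 7 than at day 3. In the class I list 3 of 8 were higher and none was lower. Over all genes tested, 4.49% were higher and 4.96% lower in this comparison. H2-Eb1 differed by 0.56 ± 0.24 (adjusted p = 0.164). Ctsb differed between the times by -0.06 ± 0.17 (adjusted p = 0.844), Axl by 0.46 ± 0.30 (adjusted p = 0.354), Cd63 by -0.28 ± 0.21 (adjusted p = 0.42), Jun by 0.25 ± 0.33 (adjusted p = 0.664) and Rps15 by -0.30 ± 0.21 (adjusted p = 0.39). These tests do not show that the 2 times were equal.

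Cadm2, a synaptic adhesion molecule of neurons, had 31 transcripts in 23 of 113 day 7 wells, 1 in control and 2 at day 3. It was 4.04 ± 0.99 higher at day 7 than at day 3 on the log2 scale (adjusted p = 0.00959) and 4.41 ± 1.18 higher than in control (adjusted p = 0.0409). The difference from control did not pass without either day 7 pair (0.488 and 0.14) or without the control pair P2 (0.127). Of 15 tested photoreceptor markers, 10 were higher at day 7 than at day 3, beside 4.49% of all genes tested. Between day 7 and control 0 were called, beside 1.82% of all genes tested. At day 3, 4 were lower than in control, beside 10.5% of all genes tested. The 20 markers of that list summed to 4394 to 11184 CPM in control, 1352 to 4406 CPM at day 3 and 8364 to 13408 CPM at day 7. The part of retinal RNA in the Cadm2 level was not tested.

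The second question was what fraction of wells carries each change. To compare wells of unequal depth, the expected share of wells with at least 1 transcript was computed with every well thinned to 1000 transcripts, and averaged over the 4 libraries of a group. All 113 day 7 and 120 control wells held that many. P2ry12 was seen in 66.4% ± 1.6 (SD, n = 4 libraries) of day 7 wells and 91.7% ± 4.3 of control wells. Without thinning, 96 of 113 day 7 wells and 115 of 120 control wells held it. Carrying wells, also unthinned, held a mean of 3.75 transcripts at day 7 and 5.97 in control. This was so although day 7 wells held more transcripts of the retina table's genes. Tmem119 was seen in 49.5% ± 11 of day 7 wells and 76.0% ± 10.6 of control wells. Gpr34 was seen in 60.5% ± 7.3 of day 7 wells and 80.5% ± 10.1 of control wells, and Fos in 7.19% ± 3.54 of day 7 wells and 25.2% ± 4.2 of control wells.

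Some higher genes were in nearly every well and others in few. Ctsb was seen in 93.9% ± 2.5 of day 7 wells and 80.0% ± 5.7 of control wells, with 9.42 and 3.55 unthinned transcripts per carrying well. Apoe was in 82.9% ± 11.6 of day 7 wells and 39.9% ± 14.0 of control wells, with 27.0 and 3.16 unthinned transcripts per carrying well. Unthinned means rise with depth, and day 7 wells held more transcripts of the retina table's genes. H2-D1 was in 77.1% ± 0.7 and 51.9% ± 3.3, Cd52 in 58.5% ± 6.6 and 33.9% ± 2.4, and Axl in 36.2% ± 4.3 and 12.02% ± 7.61 of day 7 and control wells. Itgax was seen in 12.2% ± 4.1 of day 7 wells and 0.379% ± 0.758 of control wells, Fn1 in 6.33% ± 5.04 and 0.407% ± 0.813, and Spp1 in 4.41% ± 1.05 and 0%. These shares count wells with a transcript and are lower bounds on the wells that express the gene.

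Over all genes, the 4 day 7 libraries lay wholly above the 4 control libraries in 156 of 3408 genes (4.58%) and wholly below in 136 (3.99%). No gene passed after adjustment over all of them (smallest adjusted p 0.334), since the smallest raw p that 4 against 4 libraries allow is 0.0286. In the microglia identity list 10 of 19 tested genes lay wholly below and none above; in the disease-associated list 13 of 24 lay wholly above and none below.

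**Figure D4:**
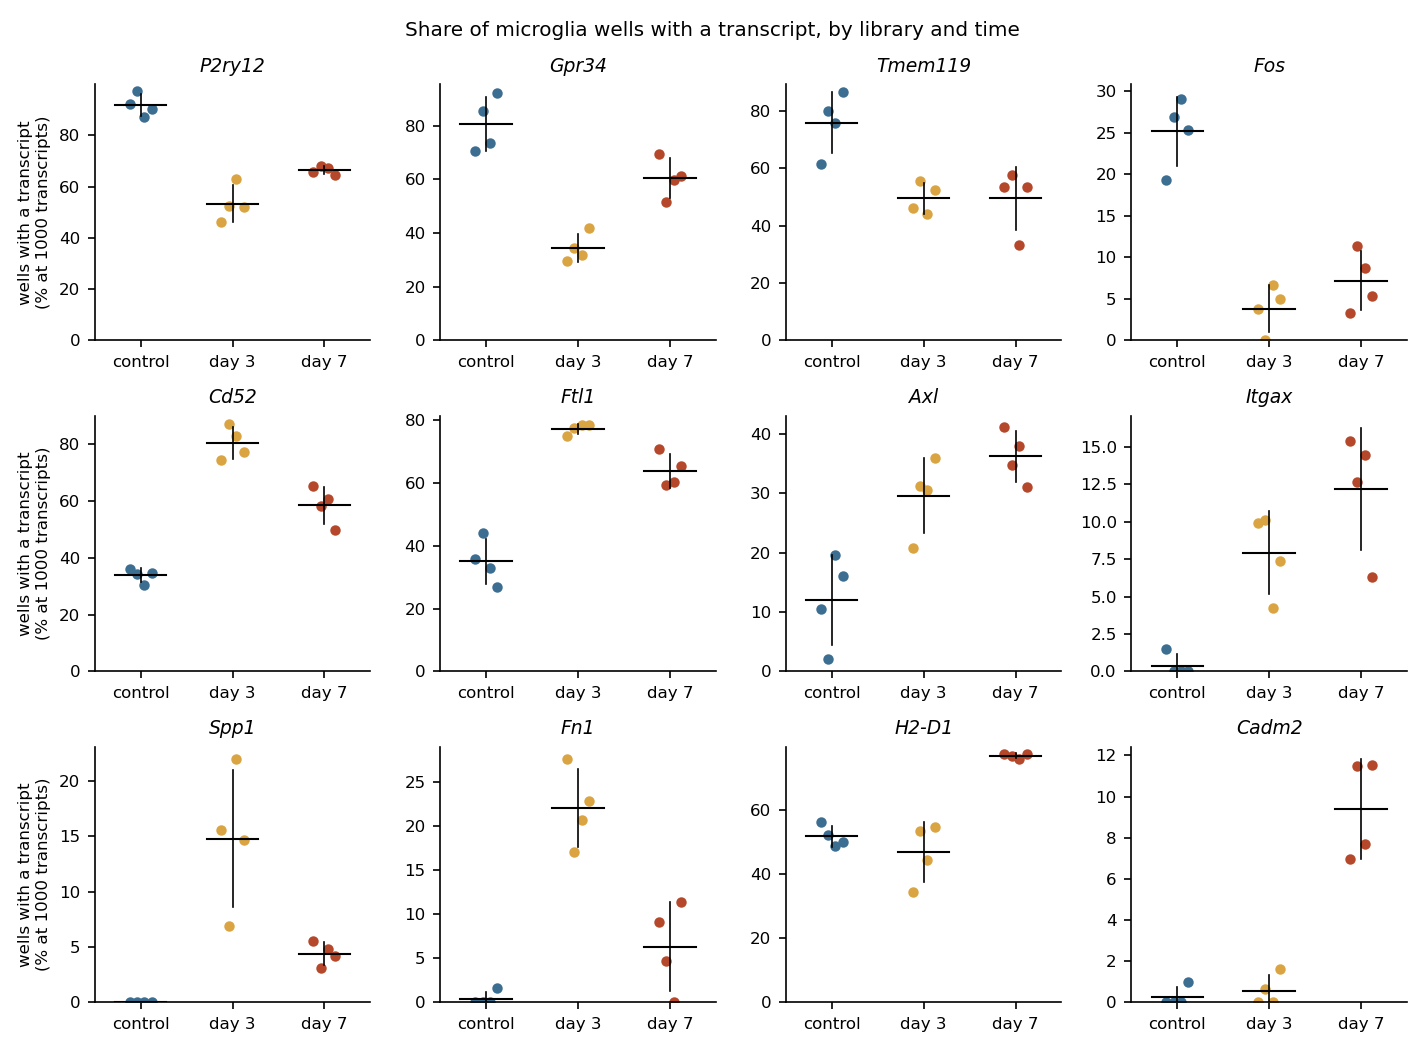
Expected percentage of microglia wells with at least 1 transcript of each gene when every well is thinned to 1000 transcripts (vertical axes), for the 4 libraries at control, day 3 and day 7, with the mean as a bar and 1 SD as a line. P2ry12 stands at 91.7, 53.4 and 66.4% in this order, H2-D1 at 51.9, 46.9 and 77.1%, and Spp1 at 0, 14.8 and 4.41%.

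To see how many wells carried several activation genes at once, the 10 members of the disease-associated list with under 200 CPM in control microglia were counted per well (Axl, Cst7, Csf1, Gpnmb, Itgax, Lgals3, Spp1, Ch25h, Fabp5 and Igf1, a limit chosen after the values were seen). At day 7, 44 of 113 wells held 2 or more of the 10, and 29 held none. In control, 2 of 120 wells held 2 or more and 80 held none. Thinned to 1000 transcripts, the expected share of wells with 2 or more was 15.9% ± 3.7 in the day 7 libraries (6.085% thinned to 500 and 38.27% to 2000) and 1.75% ± 2.54 in the control libraries, and the share with at least 1 was 53.3% ± 1.4 and 17.3% ± 9.7. The day 7 libraries ran from 11.1 to 19.9% and the control libraries from 0 to 5.38%; the limit on control levels makes a low control share part of the choice of genes, so these values are a description. At day 3 the share with 2 or more was 24.1% ± 7.7. No single day 7 library held all of these wells.

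The levels of other genes were then compared between wells with and without these 10 genes. Such groups of wells are ranges of a count that rises with depth, with medians of 1682 transcripts for the day 7 wells with none and 2807 for those with 2 or more. Many wells lie at the boundary, 40 day 7 wells holding exactly 1. Among wells with none, P2ry12 stood at 2009, 1944, 1177 and 894 CPM in the day 7 libraries and 3502, 3401, 3453 and 3802 CPM in the control libraries, whose median depth was 1554 transcripts. The lower P2ry12 level was also present in day 7 wells without a transcript of the 10 genes. Day 7 wells with 2 or more had 703 to 1484 CPM. Ribosomal protein genes took 5.84% of transcripts in day 7 wells with none and 3.76% in control wells with none. Over the pooled wells, Ctsb had 2286 CPM in day 7 wells with none, 3467 CPM in those with 1 and 4899 CPM in those with 2 or more, beside 1668 CPM in control wells with none. The order held in 3 of the 4 day 7 libraries; in P2_2 the values were 2811, 4338 and 3909 CPM. Apoe showed 5491, 7859.5 and 13548 CPM in the same order at day 7 and 919 CPM in control wells with none. The order held in 2 of the 4 day 7 libraries: wells with 1 had less Apoe than wells with none in P1_1, at 4973 and 9484 CPM, and in P2_2, at 6652 and 8561 CPM. H2-Aa had 2267, 1840 and 2225 CPM over the same day 7 wells and 808 CPM in control wells with none.

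**Figure D5:**
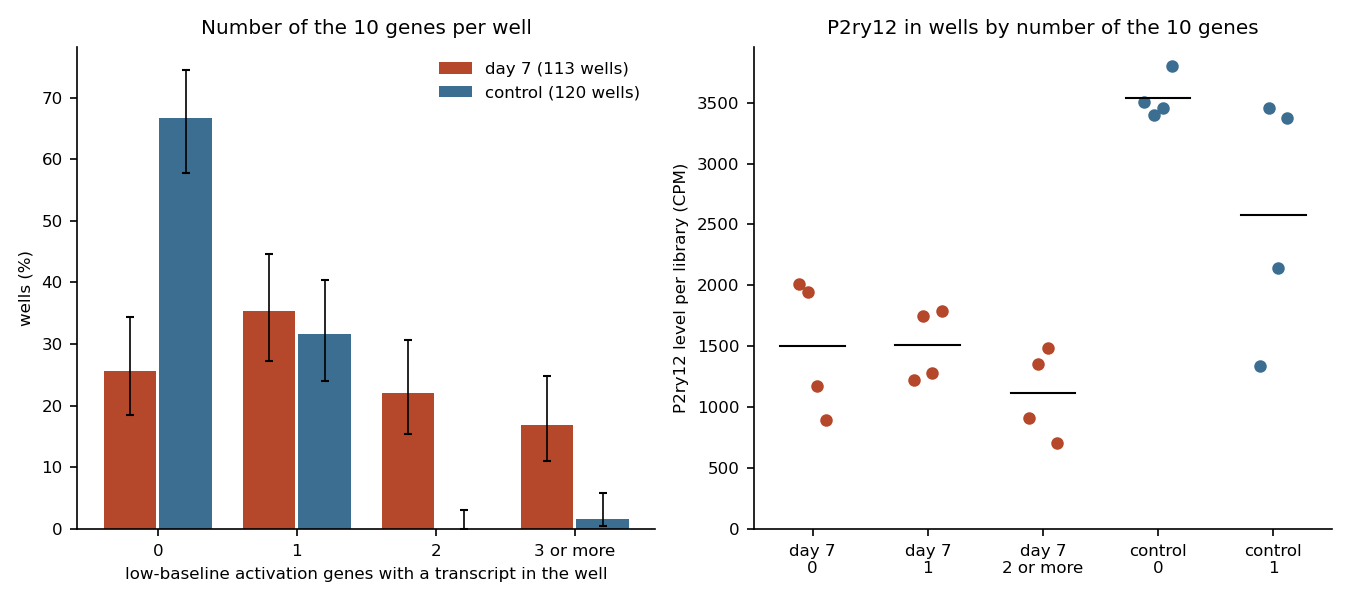
Left, percentage of the 113 day 7 and 120 control wells holding transcripts of 0, 1, 2 or 3 or more of the 10 low-baseline genes, with 95% Wilson intervals that cover counting error only. Right, P2ry12 level per library in CPM (points) and its mean (bar) in day 7 wells with 0, 1 and 2 or more of these genes and in control wells with 0 and 1; the day 7 wells with 0 lie between 894 and 2009 CPM and the control wells with 0 between 3401 and 3802 CPM.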

How the data were processed

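Wells were taken from the authors' deposited retina table, whose values are estimated counts, unnormalized, and from the deposited annotation of each well. Reads were aligned with BWA 0.6.2-r126, per the submitters' processing notes; the sources used here do not give the genome build or how reads were counted. The authors left 96 genes out of this table, mitochondrial genes among them. Wells were matched to the deposited library tables by their values.

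Estimated counts of microglia wells were summed per library pair, rounded and tested with edgeR 4.0.16 in R 4.3.3 (filterByExpr, TMM, robust quasi-likelihood fit over 6 sums, Benjamini-Hochberg threshold 0.05), tested on simulated data. Sums held 65283 to 218307 transcripts. CPM are scaled transcript counts. The SE was derived from the F statistic and the unshrunk log2 ratio. All wells held over 1000 transcripts. Shares of wells use the hypergeometric expectation and exact permutation tests over 4 against 4 libraries. DESeq2 1.42.0 was an alternative. Replicate numbers did not pair the samples (correlations of deviations 0.192, 0.02 and -0.079).

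Named genes are those past the threshold of at least 50 CPM (at most the 30 largest), up to 4 per list by adjusted p, and standard genes set by hand; the remaining genes past the threshold were named after their values were seen. The members and the gene lists were chosen with earlier results of these data known. Some genes are not reported here.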

Additional observations from a re-analysis of the deposited data

Results flagged for a closer look

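Between day 7 and day 3, the test of the difference itself passed for genes of several kinds. On the log2 scale of day 7 over day 3, the photoreceptor gene Gnat1 stood at 1.64, Cadm2 at 4.04, the presentation genes H2-D1, H2-Aa and B2m at 1.21, 1.09 and 0.71, and the microglial receptors Gpr34, Trem2 and P2ry12 at 1.04, 0.85 and 0.65. Lower at day 7 than at day 3 were Top2a at -5.51, Fn1 at -2.58, Hmgb2 at -2.53, Spp1 at -2.44, Lpl at -1.71 and Fcrls at -0.97.

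A few libraries stood far from the other 3 of their group in the thinned share of wells with a transcript. Top2a was highest in the day 7 library P2_2, at 3.19%. In control, Itgax was highest in the library P1_1 at 1.52%, Fn1 in P2_2 at 1.63% and Cxcl10 in P2_2 at 4.02%, with the other 3 control libraries at 0 for these 3 genes. Chance gives such a value in about 1 in 20 groups of continuous values; Itgax and Fn1 had 1 transcript each in control and Top2a was in 1 day 7 well, so that 1 library had to stand apart.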

How the results depend on the processing

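The count of 62 genes between day 7 and control was 54 with RLE factors, 68 without a filter on low counts, 164 with single libraries as replicates, 3 with only day 7 and control in the fit, 96 in wells of at least 1000 transcripts and at most 25% mitochondrial, 34 in wells that are microglia by the authors' signature too, 41 without wells of at least 1% photoreceptor transcripts, 3 after thinning to the smallest sum and 26 with DESeq2. With all genes of the library tables, an alternative chosen after seeing the data, it was 37, of which 24 were higher and 13 lower. Leaving out 1 pair at a time gave 41 to 142. With a replicate block it was 68, and 59 of the 62 passed. Of the 62 genes, 12 passed without any one of the day 7 and control pairs and 13 passed in only 1 of those 4 fits; each that was tested kept its direction in every alternative. Day 3 against control gave 191 genes after thinning and 246 with DESeq2, and 416 to 928 without 1 pair. Day 7 against day 3 gave 186 by the signature, 67 after thinning and 66 with DESeq2, and 186 to 542 without 1 pair.

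Genes whose 4 libraries lay apart in the share of wells numbered 292, 1460 with pairs in place of libraries, and 401 to 454 without 1 library. Fewer units lie apart by chance more often, so these counts cannot be compared with each other. The smallest p of the exact permutation test is 0.0286 for 4 against 4 libraries and 0.333 for 2 against 2 pairs. The day 7 share of wells with 2 or more low-baseline genes was 6.085% thinned to 500 and 38.27% thinned to 2000 transcripts, where fewer wells remained. Among named genes 5 changed sign, none of them past the threshold. On the log2 scale Cd9 was 0.019 by the signature and -0.22 to 0.057 without 1 pair, and Gnat1 was -0.11 without photoreceptor-rich wells. Lpl was 0.22 after thinning and -0.77 to 0.59 without 1 pair. Mki67 was 0.067 without a filter, 0.17 by the signature, 0.046 without photoreceptor-rich wells and -1.74 to 0.97 without 1 pair. Top2a was -4.39 to 3.17 without 1 pair. The cause was not tested. Dropping mitochondrial genes was not run, since the table holds none. With 2 sums a group and 65283 transcripts in the smallest, many small changes could go undetected. In simulated data with 3024 genes tested, 100 genes were changed 2-fold and 100 were changed 4-fold. Among the changed genes that passed the filter on low counts, 13.3% and 76.0% were recovered, with 3 false calls among unchanged genes. The changes were put only into better-expressed genes, with the same spread for every gene, so the rates do not cover genes of low level.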

Other observations

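The 2 control wells that held 3 or more of the 10 low-baseline activation genes came from different libraries, P1_1 and P2_2. Together they had 10774 CPM of Ctsb and 399 CPM of P2ry12, beside 1668 and 3586 CPM in the 80 control wells with none of the 10 genes. P2ry12 was at 723 CPM in the P1_1 well and 0 in the P2_2 well. Tmem119 was at 0 in both, and Cx3cr1 at 2168 and 1783 CPM. The median depth of the 2 wells was 1253 transcripts, so the receptor levels rest on very few transcripts.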
